A study of Mus musculus with 30 samples.

Results

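The regions described here are stretches of open chromatin that were present in endothelial cells (ECs) taken straight from the adult mouse brain and that were absent after 8 days in culture. They were chosen by measured ATAC-seq peaks. Peaks of the 2 lists of acutely isolated brain ECs and of the 6 lists of WT cultured brain ECs were merged where they overlapped by 1 bp or more, and an interval was counted as lost when it held a peak of both acute lists and of none of the 6 WT lists. Of 124834 merged intervals, 28222 held a peak of both acute lists, and 3712 of these (13.2%) were lost. A further 7541 intervals held a peak of both acute lists and of 1 to 5 WT lists, and 16969 held a peak of all 8 lists. These 2 classes, called partly kept and shared regions below, serve for comparison. Since the acute and WT peaks chose the lost regions, their enrichment, their width and their absence from WT cultures are descriptions without a test.

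ATAC-seq measures where chromatin is accessible to the Tn5 transposase, which in nucleosome-depleted promoters and enhancers inserts sequencing adaptors readily. Brain ECs form the blood-brain barrier (BBB): they are sealed by tight junctions and carry nutrients through dedicated transporters. In the brain this state depends on canonical Wnt signaling, in which ligands bind Frizzled receptors, beta-catenin is spared from degradation, enters the nucleus and there binds transcription factors of the TCF/LEF family, whose DNA sites have the core CTTTGA.

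Acutely isolated ECs were GFP-positive cells sorted from the brains of adult male homozygous Tie2-GFP mice, in which a promoter of the EC receptor Tie2 drives GFP, and the GFP-negative cells of these mice were sequenced by RNA-seq only. According to the paper, its adult brain EC data combine cerebrum data, new to that study, with cerebellum data published earlier. All cultures were grown for 8 days from adult male brains and purified with puromycin. WT replicates 1 and 2 came from C57BL/6J mice by isolation method A. The paper's results describe its WT controls, these mice included, as injected with 4-hydroxytamoxifen (4HT). Its methods can be read either way for the C57BL/6J mice. WT replicates 3 to 6 came by method B from Ctnnb1flex3/+;Tie2-GFP mice that had received 4HT as pups and that carried no Cre. Stabilized cultures came from Ctnnb1flex3/+;Pdgfb-CreER;Tie2-GFP mice given 4HT in the same way, in which the EC-active Pdgfb-CreER deletes an exon of 1 Ctnnb1 allele so that beta-catenin resists degradation. The RNA of Ctnnb1 summed over its transcripts does not check for that exon. Method A also gave stabilized RNA-seq replicates 1 and 2, and method B all other stabilized libraries. ATAC-seq covered 2 acute, 6 WT and 2 stabilized libraries, and RNA-seq covered 2 acute EC, 2 GFP-negative, 6 WT and 4 stabilized libraries. Culture replicates are wells, with 2 wells from each experiment, so that p-values measure in part the spread between wells. The ATAC-seq lists held 37453 and 31844 peaks in acute ECs, 33152 to 98840 in WT cultures, and 80075 and 79160 in stabilized cultures, while the RNA-seq libraries held 24284843 to 94686456 estimated counts.

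The labelled cell type was checked in the RNA. All 7 endothelial markers were at 1 TPM (transcript abundance scaled to a fixed total per library) or more in every EC library, with summed levels of 2795 and 2923 TPM in acute ECs and of 745 to 2010 TPM in WT cultures, beside 6.98 and 19.3 TPM in GFP-negative cells. Pericyte, erythroid, oligodendrocyte and astrocyte markers were higher in acute ECs than in culture. The 8 pericyte markers summed to 546 and 558 TPM against 2.93 to 5.9 TPM in WT cultures, the 6 erythroid markers to 4756 and 31517 TPM against 0 to 1.39 TPM, the 8 oligodendrocyte markers to 34.1 and 39.2 TPM against 0.2 to 1.27 TPM, and the 6 astrocyte markers to 87.7 and 467 TPM against 3.36 to 45.8 TPM, whereas the 4 smooth muscle markers summed to 214 and 233 TPM against 501 to 3068 TPM. In bulk samples fewer cells of a type and less signal per cell cannot be told apart. Lost regions were nearest to 7 of 7 endothelial markers (16 regions), to 2 of 6 astrocyte markers (8 regions), to 1 marker each of neurons, oligodendrocytes, erythroid cells and fibroblasts (1 region each), and to none of the 8 pericyte, 8 microglia and 4 smooth muscle markers. In all, 2267 protein-coding genes were nearest to a lost region, beside 21847 with an RNA value. Counts of 0 or 1 in such short lists therefore do not set a cell type apart. The part of other cells in the loss of regions was not tested.

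The DNA of 9 lost regions is shown first, because these regions lie at genes of the BBB and of Wnt signaling on which the results turn. Each is given as 200 bases around the summit of the peak in acute replicate 1, on the plus strand of GRCm38, read from the RefSeq genome. For genes of the Wnt and BBB transporter lists, they are the most enriched lost region of each within 2 kb of a start site, followed by the most enriched farther away that hold a TCF/LEF motif. Windows that touch an annotated UTR had been left out beforehand, and Slco1c1 was named after its values had been seen. Capitals mark the TCF/LEF letters CTTTGAT or CTTTGAA on either strand. Distances run from the nearest start site of any protein-coding transcript of the gene to the middle of the region and are negative before the start site. Regions at a start site were those of Slco1c1 (window chr6:141523988-141524187, distance -245 bp) and Slc7a1 (chr5:148392880-148393079, -213 bp). Intergenic regions were those of Car4 (chr11:84956339-84956538, -1307 bp), Slco1a4 (chr6:141857829-141858028, -1721 bp), Spock2 (chr10:60104892-60105091, -1187 bp) and Slc2a1 (chr4:119044356-119044555, -64355 bp). Intronic regions were those of Nkd1 (chr8:88580782-88580981, -1995 bp), Abcg2 (chr6:58623471-58623670, -17115 bp) and Znrf3 (chr11:5411777-5411976, -30077 bp).
Slco1c1: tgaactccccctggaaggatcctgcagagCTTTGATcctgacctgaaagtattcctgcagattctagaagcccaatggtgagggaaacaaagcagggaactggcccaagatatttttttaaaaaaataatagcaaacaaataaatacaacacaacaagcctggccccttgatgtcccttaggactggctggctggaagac
Slc7a1: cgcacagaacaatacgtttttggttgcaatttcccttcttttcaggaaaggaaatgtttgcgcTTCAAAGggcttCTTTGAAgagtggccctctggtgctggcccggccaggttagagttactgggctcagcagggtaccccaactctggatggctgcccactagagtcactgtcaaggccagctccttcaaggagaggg
Car4: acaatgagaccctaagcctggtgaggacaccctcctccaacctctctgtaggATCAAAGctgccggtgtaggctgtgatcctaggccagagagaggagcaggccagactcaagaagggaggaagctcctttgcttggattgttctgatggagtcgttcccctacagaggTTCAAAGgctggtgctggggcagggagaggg
Nkd1: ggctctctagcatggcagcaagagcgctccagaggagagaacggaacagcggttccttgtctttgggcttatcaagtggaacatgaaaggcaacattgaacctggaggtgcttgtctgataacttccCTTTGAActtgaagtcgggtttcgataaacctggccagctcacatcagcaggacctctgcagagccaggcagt
Slco1a4: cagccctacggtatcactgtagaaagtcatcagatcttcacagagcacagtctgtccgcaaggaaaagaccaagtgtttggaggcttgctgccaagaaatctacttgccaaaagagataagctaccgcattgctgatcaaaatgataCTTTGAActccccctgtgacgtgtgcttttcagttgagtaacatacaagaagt
Spock2: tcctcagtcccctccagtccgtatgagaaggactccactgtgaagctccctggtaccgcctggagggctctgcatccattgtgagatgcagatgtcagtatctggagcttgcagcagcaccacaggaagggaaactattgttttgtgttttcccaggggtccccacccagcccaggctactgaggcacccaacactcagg
Abcg2: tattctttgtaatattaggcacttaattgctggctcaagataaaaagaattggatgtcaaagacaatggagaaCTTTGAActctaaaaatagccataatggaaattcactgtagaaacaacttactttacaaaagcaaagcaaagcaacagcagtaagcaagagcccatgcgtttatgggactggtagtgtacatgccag
Znrf3: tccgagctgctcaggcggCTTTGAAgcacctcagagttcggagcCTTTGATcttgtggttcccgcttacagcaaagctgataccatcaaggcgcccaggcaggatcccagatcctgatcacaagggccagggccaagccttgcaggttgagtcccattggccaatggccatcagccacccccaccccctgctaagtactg
Slc2a1: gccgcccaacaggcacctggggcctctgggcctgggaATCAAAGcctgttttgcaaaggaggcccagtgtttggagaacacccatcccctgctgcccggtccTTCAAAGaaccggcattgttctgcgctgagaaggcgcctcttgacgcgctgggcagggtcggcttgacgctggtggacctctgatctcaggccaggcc
Slc7a1, Car4, Znrf3 and Slc2a1 hold 2 TCF/LEF matches each, Slco1c1, Nkd1, Slco1a4 and Abcg2 hold 1, and Spock2 holds none. Among these regions, enrichment over background was 13.83-fold and 13.38-fold in the acute lists for Slco1c1 and 14.73-fold and 12.11-fold for Slc7a1. None of the 9 regions had a peak in either stabilized list. Over all lost regions, 122 (3.29%) had one, so its absence does not set these 9 apart.

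Lost regions were narrow, moderately enriched and far from promoters. Their width had a median of 451 bp (quartiles 350 and 582 bp), against 602 bp for partly kept and 958 bp for shared regions. Fold enrichment had a median of 5.16 in acute replicate 1 and of 4.27 in acute replicate 2, and the smaller of the 2 values ranged from 1.53 to 22.88 with a median of 4.06, against medians of 4.59 and 9.91 in the other classes. Within the lost regions the 2 acute lists ranked enrichment alike (Spearman's rho across regions 0.81, a description, since regions are not replicates), and their summits lay a median of 28 bp apart. The share lost was lower at higher enrichment, from 37.5% (524 of 1398 regions) where the smaller acute value was at most 3-fold to 0.9% (30 of 3525) where it was over 15-fold.

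Only 140 lost regions (3.8%) had their middle within 1 kb of a protein-coding start site, whereas 15.3% of partly kept and 60.2% of shared regions did. Another 123 (3.3%) lay in exons, 1387 (37.4%) in introns and 2062 (55.5%) between genes. The median distance to the nearest protein-coding start site was 28.5 kb (quartiles 9.6 and 77.2 kb), against 17.4 kb and 0.2 kb in the other classes, and 34.8% of lost regions lay more than 50 kb away. Shared regions were both stronger and closer to start sites, so the share lost was also taken over regions more than 1 kb from a start site alone, where it was 41.5% at up to 3-fold and 5.7% above 15-fold.

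**Figure D1:**
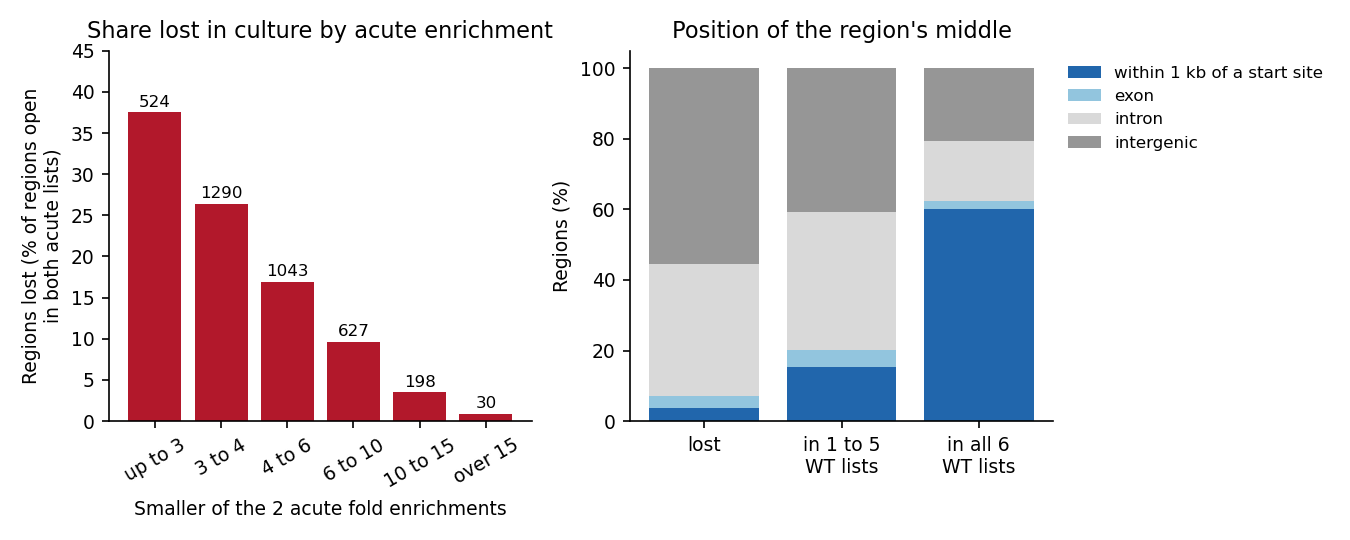
Left, share of the regions open in both acute lists that were lost (y axis, percent) by the smaller of the 2 acute fold enrichments (x axis), with the number of lost regions above each bar. Right, position of the region's middle for lost, partly kept and shared regions as stacked percentages. The share lost falls from 37.5% to 0.9%, and 3.8% of lost against 60.2% of shared regions lie within 1 kb of a start site.

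Near the threshold of the rule, 729 regions with a peak in both acute lists had a peak in exactly 1 WT list, with a median smaller enrichment of 4.20. WT replicate 4, the longest list, held 344 of them (47.2%), WT replicate 3 held 192 and WT replicate 1 held 65. WT replicates 6 and 5 held 60 and 50, and WT replicate 2, the shortest list, held 18. This order was not that of list length: WT replicates 3, 1, 6 and 5 had 92763, 50450, 92976 and 84560 peaks. The cause of these differences was not tested. On the acute side, 4226 intervals had a peak in 1 acute list and in no WT list, with a median enrichment of 3.33. The nearest WT peak lay a median of 3548 bp from a lost region, with 74 lost regions that had a WT peak within 100 bp and 813 within 1000 bp.

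Lost regions were not spread evenly over the chromosomes. On the autosomes 12.1% of the regions open in both acute lists were lost (8.2% to 18.1% by chromosome), on the X chromosome 24.4% (199 of 817) and on the Y chromosome 90.0% (197 of 219). On the X chromosome 132 of the 199 lay in chrX:123013185-126078485, a stretch picked after the positions had been seen, where 120 were similar in sequence to another lost region, and elsewhere on that chromosome the share was 9.8% (67 of 681). The acute lists held 290 and 361 peaks on the Y chromosome, the WT lists 15 to 59 and the stabilized lists 28 and 24, although all samples are labelled male. Over the genome, 561 of 3679 lost regions with a placed sequence (15.2%) were similar to another lost region over at least 100 bases at 80% identity, against 8.0% of partly kept and 6.5% of shared regions within their own classes, and 10.5% were more than 80% repeats, against 1.3% and 0.3%. The part of repeated sequence in these losses was not tested. Leaving out the Y chromosome, all regions similar to another and those without a placed sequence left 3057 lost regions.

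The 10 genes with the most lost regions were Gm20830 (29 regions), Gm17267 (26), Gm21719 (25), Gm21616 (21), Gm17693 and Gm21778 (16 each), Gm10324 and Gm10330 (15 each), Gm28919 (13) and Gm10139 (12), all predicted genes, and the 8 of them with an RNA value were at 0 to 0.199 TPM in the acute ECs. Lost regions also came in groups at other genes. With a gap of at most 100 kb, 692 groups of 2 or more held 2234 lost regions, and 41 groups of 5 or more held no region similar to another (238 regions). They included 8 regions within 118.5 kb at Tbc1d1, a regulator of glucose transporter traffic, 8 within 358.2 kb at Hadh, Lef1 and Rpl34, 7 within 193.4 kb at Zfp36l1, which encodes a protein that destabilizes mRNA, 7 within 200.7 kb at Brd7 and Nkd1, 7 within 231.7 kb at Flt1, Pan3 and Pomp, and 5 within 68.6 kb at Ptn, which encodes the growth factor pleiotrophin. These groups were picked for description after their values had been seen, and RNA differed among them. Zfp36l1 was at 274 and 371 TPM in acute ECs and at 4.55 to 20.9 TPM in WT cultures, whereas Tbc1d1 was at 12.5 and 11.7 TPM and at 17.7 to 27.8 TPM.

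The 10 most enriched lost regions lay 6.2 to 231.1 kb from the genes nearest to them. The strongest (chr10:106417088-106417791, 22.88-fold and 23.19-fold) was intergenic and 52.9 kb from Ppfia2, which was at 0.0406 and 0.287 TPM in acute ECs. The next was 203.5 kb from Gulp1 (20.86-fold and 20.72-fold), and the third was 73.4 kb from Atp11b (19.43-fold and 20.32-fold) with 90.4% repeat sequence. The others were nearest to Mbd2, Zfp157, Glcci1, Gatm, Dmgdh, Rasd2 and Nat8, with smaller enrichments of 17.16 to 18.65, and 2 of the 10, at Gatm and Dmgdh, held a TCF/LEF motif. Of these 10 genes, Atp11b, Glcci1 and Gatm were called lower in culture and Gulp1 was called higher. The 5 least enriched, at 1.53-fold to 1.92-fold in the weaker list, were nearest to 4930467E23Rik, Sema4c, Aass and AC149090.1, and 2 of them lay on an unplaced scaffold, with a peak there in 1 stabilized list each.

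TCF/LEF letters were frequent at the summits of lost regions. In the 200-base windows around the summit of acute replicate 1, 861 of 3679 lost regions (23.4%) held CTTTGAT or CTTTGAA on either strand, against 13.1% of partly kept and 4.4% of shared regions. The 95% exact binomial interval for lost regions, 22.0% to 24.8%, covers counting error only and treats regions as independent draws. Some are similar in sequence, and without those the share was 26.0%, outside the interval (a choice made after seeing the data). More than 1 kb from a start site the shares in lost, partly kept and shared regions were 23.4%, 14.5% and 7.8%. In windows of the same length 500 bases to either side, 8.6% and 9.4% of lost regions held the letters, against 8.0% and 7.2% beside partly kept and 6.5% and 6.6% beside shared regions, so that the classes lay closer together there than at the summit. Per 20-base bin, the share in lost regions was 3.75% just before the summit and 1.14% to 1.50% at distances of 150 to 190 bases from it. Base composition differed too: the windows averaged 49.3% GC in lost, 53.3% in partly kept and 62.0% in shared regions.

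The TCF/LEF share rose with enrichment among lost regions, from 11.2% at up to 3-fold through 19.6%, 24.4% and 32.5% to 43.0% above 10-fold. In partly kept regions it rose from 8.3% to 26.5% over the same bins, and in shared regions it was 6.5% in the lowest and 3.4% in the highest bin. SOX, FOX, ZIC and KLF letters (spelled out below) also stood in more of the strong than of the weak lost regions, with 10.0% and 18.4%, 4.1% and 8.3%, 10.0% and 18.9%, and 1.2% and 9.2% in the lowest and the highest bin. These are descriptions of sequence, since regions are not replicates and a match does not show that a factor bound there.

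**Figure D2:**
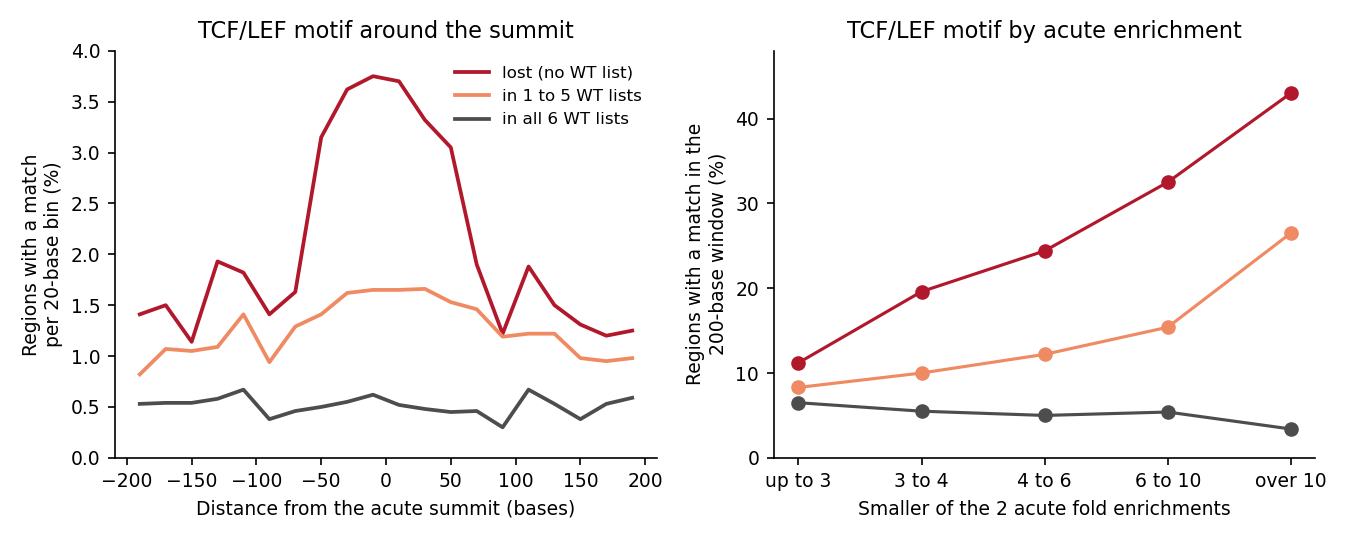
Left, share of regions with a TCF/LEF match (y axis, percent) per 20-base bin by distance from the summit of acute replicate 1 (x axis, bases) for lost, partly kept and shared regions. Right, share with a match in the 200-base window (y axis, percent) by the smaller acute fold enrichment (x axis). Lost regions peak at 3.75% near the summit and rise from 11.2% to 43.0% with enrichment.

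Of the other motifs, GATA letters (AGATAAG) stood in 4.3% of lost, 3.1% of partly kept and 1.4% of shared windows, FOX letters (TGTTTAC) in 5.9%, 5.3% and 2.8%, and KLF letters (CCACACCC) in 4.8%, 4.2% and 3.0%, in the same order of classes as TCF/LEF but with smaller differences. SOX letters (ACAATGG or ACAAAGG) stood in 14.6%, 14.4% and 7.0%. ETS letters (CCGGAAG or CAGGAAG), the sites of ERG and related factors of ECs, stood in 20.1%, 25.4% and 25.4%, and ZIC letters (CCTGCTG) in 11.8%, 14.3% and 10.1%. Lost regions held fewer matches of the SP/KLF GC box (CCCCGCCC, 2.5%, 7.4% and 23.3%), of CTCF (AGGGGGC, 3.0%, 6.8% and 11.3%) and of AP-1 (TGANTCA, 3.7%, 5.5% and 8.0%). More than 1 kb from a start site, AP-1 letters stood in 3.8%, 6.2% and 16.3%, and the GC box in 2.3%, 3.6% and 6.7%. There, SOX letters stood in 14.8%, 15.8% and 12.3%, so that most of their difference from shared regions was gone. ZIC letters stood in 11.6%, 14.7% and 14.2% there, FOX letters in 5.9%, 5.8% and 4.8%, and CTCF letters in 2.8%, 5.5% and 6.6%. TEAD letters (ACATTCC) stood in 2.7%, 3.3% and 2.7%, and PU.1 letters (GAGGAAGT) in 3.1%, 3.8% and 3.1%. All motifs were searched on both strands. The TCF/LEF letters and 1 of the SOX words (ACAAAGG) share the run CTTTG but differ in the base after it, so that a given CTTTG counts for only 1 of them.

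RNA, which the choice of regions had not used, was compared next for the protein-coding genes nearest to lost regions, to ask whether genes near lost chromatin fell in culture. Read length differed with culture: acute libraries were read for 75 cycles, WT replicates 3 and 4 for 150 and all other cultures for 36. Acute libraries were also single-end and cultures paired-end, and another facility prepared WT replicates 3 and 4. In these libraries read format and culture cannot be told apart. The paper trimmed reads of a 150-cycle sample to the shorter formats and reported that the resulting expression values were highly correlated. There were 2267 such genes, of which 1758 had enough counts to be tested between the 6 WT cultures and the 2 acute EC libraries. Called genes had an adjusted p under 0.05 (edgeR, Benjamini-Hochberg over all genes tested), changed by more than 2-fold and reached 5 TPM in every library of the higher group. Of the 1758 genes, 445 (25.3%) were called lower in culture, against 10.2% of all 13798 genes tested, and 124 (7.1%) were called higher, against 13.5% of all. Their median log2 fold change was -0.83, against 0.10 for all genes. Genes nearest to a partly kept region were called lower in 18.1% and those nearest to a shared region in 12.1%, and the 3 sets overlap. The split of calls depends on scaling over all genes: 43.0% of all calls were lower with the scaling used here and 35.7% to 50.5% with 3 others, while for the nearest genes 78.2% were lower, and 72.4% to 79.5% with the others. Scaling by library size moved the median of all genes to 0.30.

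The share called lower increased with the number of lost regions. It was 19.9% of genes with 1 lost region, 35.1% with 2, 38.2% with 3 or 4, and 62.9% with 5 or more (22 of 35, with 0 called higher by edgeR, 1 of the 35 being higher at an unadjusted p under 0.05). Among genes without a lost region, the share also increased with the number of partly kept regions, from 10.3% with 1 to 40.7% (11 of 27) with 5 or more. A gene must reach 5 TPM in acute ECs to be called lower. Among genes at 5 TPM or more in both acute libraries, 42.8% of those nearest to a lost region were called lower (445 of 1039), against 24.6% of all and 20.3% of those nearest to a partly kept or shared region but to no lost one. Of 373 genes nearest to a lost region and to neither of the other classes, 104 were tested and 7 (6.7%) were called lower. The share was 31.8% for genes with a lost region within 10 kb, 29.4% at 10 to 50 kb and 21.5% beyond 50 kb, and it was 30.5% for genes with a TCF/LEF match in a lost region and 25.7% for genes with a lost region without one. A gene can be in several of these groups, and the shares carry no test.

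**Figure D3:**
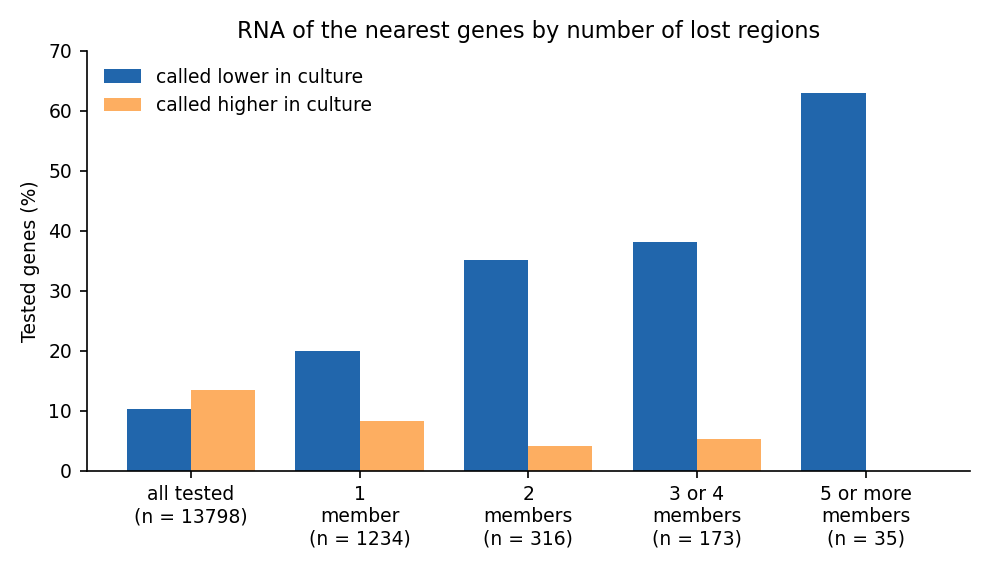
Percent of tested genes (y axis) called lower (blue) or higher (orange) in culture, for all genes tested and for genes with 1, 2, 3 or 4, and 5 or more lost regions (x axis, with the number of genes tested). The share called lower is 10.2% over all genes and rises from 19.9% to 62.9%, and the share called higher is 8.3% with 1 lost region and 0 with 5 or more.

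Whether the nearest genes were EC-enriched was asked in the sorted cells. Between acute ECs and GFP-negative cells of Tie2-GFP brains, 483 of 1831 tested nearest genes (26.4%) were called higher in ECs, against 8.28% of all 15116 genes tested. Another 122 (6.7%) were called lower, against 7.55%. The share called higher in ECs was 20.9% of genes with 1 lost region, 35.3% with 2, 43.3% with 3 or 4 and 61.1% with 5 or more (22 of 36). Partly kept regions showed a similar pattern. Of the genes nearest to one, 19.2% were called higher in ECs. Among genes without a lost region, the share went from 10.3% with 1 partly kept region through 16.8% and 26.6% to 41.4% with 5 or more. The comparison of sorted cells shares the acute EC libraries with the comparison to culture. Of the 483 EC-enriched nearest genes, 272 (56.3%) were called lower in culture. The share was 51.4% for EC-enriched genes nearest to a partly kept region and 45.2% (566 of 1252) for all EC-enriched genes.

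Of 27 genes of Wnt beta-catenin signaling, 15 were nearest to a lost region, with 35 regions in all, and 9 of these 15 were called lower in culture (13 of the 26 tested in the whole list) and 0 higher. For this and the following lists, the base over all protein-coding genes is 2267 nearest to a lost region, beside 21847 with an RNA value. Many of those are not expressed in ECs. The base is 1039 of 5737 genes at 5 TPM or more in both acute libraries and 483 of 1252 EC-enriched genes. The shares called lower in culture were 10.2% of all genes tested, 24.6% of those at 5 TPM or more in both acute libraries and 45.2% of EC-enriched genes. The nuclear factor Lef1, which binds DNA together with beta-catenin, had 5 lost regions 43.0 to 173.4 kb away, of which 3 held TCF/LEF letters. Its level was 47.4 and 205 TPM in the 2 acute libraries and 1.61 to 18.8 TPM (median 7.92) in the 6 WT cultures, and its log2 fold change was -4.63 (SE 0.61, adjusted p = 0.00065, edgeR). The acute libraries differed widely from each other, yet did not overlap the cultures. Its relative Tcf7, with 2 lost regions, was at 56.9 and 40.7 TPM in acute ECs and 0.257 to 3.56 TPM in culture (log2 fold change -5.99, SE 0.62, adjusted p = 0.00022, edgeR).

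Nkd1, a cytoplasmic antagonist of the pathway that the pathway itself induces, had 6 lost regions, of which the 5 strongest held TCF/LEF letters. It was at 34.7 and 56.7 TPM in acute ECs and at 1.06 to 3.28 TPM (median 1.41) in culture, and its log2 fold change was -6.04 (SE 0.36, adjusted p = 2.5e-05). In GFP-negative cells Nkd1 was at 15.5 and 37.8 TPM. Spock2, a secreted proteoglycan, had 3 lost regions and was at 440 and 643 TPM in acute ECs and 0.622 to 2.47 TPM in culture (log2 fold change -9.62, SE 0.84, adjusted p = 0.00011). The receptor Fzd6, the receptor cofactor Reck, the TNF receptor family member Tnfrsf19 and Ctnnb1, the beta-catenin gene, with 2 or 3 lost regions each, were also called lower, with log2 fold changes of -2.25, -2.49, -4.58 and -1.20. Znrf3, a ubiquitin ligase that removes Frizzled receptors, holds the region with 2 TCF/LEF matches printed above. It was at 2.66 and 7.28 TPM in acute ECs and at 0.595 to 2.6 TPM in culture, and it missed the TPM minimum although its adjusted p was 0.00063 (log2 fold change -2.56). Adgra2, the Wnt coreceptor GPR124, had 2 lost regions and 19.4 and 24.8 TPM in acute ECs beside 17.8 to 111 TPM in culture, with overlap of the groups (log2 fold change 0.19, adjusted p = 0.89).

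Of 34 transporters and enzymes of the BBB, 17 were nearest to a lost region (38 regions), and 16 of these 17 were called lower in culture (28 of 34 in the whole list) with 0 higher, and a median log2 fold change of -4.78. Slco1c1, which carries thyroid hormone and had a lost region at its start site, was at 1475 and 1993 TPM in acute ECs and 0.559 to 9.99 TPM (median 0.909) in culture, and its log2 fold change was -9.15 (SE 1.24, adjusted p = 0.00073). Its neighbour Slco1a4, an organic anion transporter, had 7 lost regions, including the first bases of its gene (9.74-fold and 8.29-fold) and the region printed above. It was at 680 and 807 TPM in acute ECs and at 6.31 to 91 TPM (median 21.6) in culture (log2 fold change -5.61, SE 0.87, adjusted p = 0.0012).

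Slc22a8, an organic anion transporter nearest to a lost region, went from 179 and 183 TPM to 0.0204 to 0.311 TPM (log2 fold change -12.17, adjusted p = 1.3e-05), on 2 to 18 counts per WT library. Car4, a carbonic anhydrase of the capillary surface, went from 1116 and 1235 TPM to 0 to 0.786 TPM. The arginine transporter Slc7a1 was at 114 and 99.9 TPM in acute ECs and at 5.29 to 47.7 TPM in culture (log2 fold change -3.47, SE 0.91, adjusted p = 0.013), with a wide spread among the wells. The taurine transporter Slc6a6 and the zinc transporter Slc39a10, had 4 lost regions each, and Slc6a6 fell by 6.04 (SE 0.53) and Slc39a10 fell by 6.02 (SE 0.29) on that scale. Alkaline phosphatase Alpl (4 regions) and the lipoprotein receptor Lrp8 (3) fell by 6.64 and 4.78. The amino acid transporter Slc7a5, with 1 lost region, was at 221 and 289 TPM in acute ECs and at 15.4 to 328 TPM (median 19.3) in culture and was called lower although the groups overlapped (log2 fold change -3.12, adjusted p = 0.016). The glucose transporter Slc2a1, whose 2 lost regions lay 64.4 and 62.8 kb away, was at 1588 and 1816 TPM in acute ECs and still at 210 to 676 TPM in culture (log2 fold change -2.07, SE 0.36, adjusted p = 0.0021). The efflux pump Abcg2 was the exception among the 17: despite a lost region of 13.96-fold and 11.96-fold enrichment, it was at 212 and 350 TPM in acute ECs and at 87 to 398 TPM in culture (log2 fold change -0.65, SE 0.48, adjusted p = 0.30), with overlap.

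**Figure D4:**
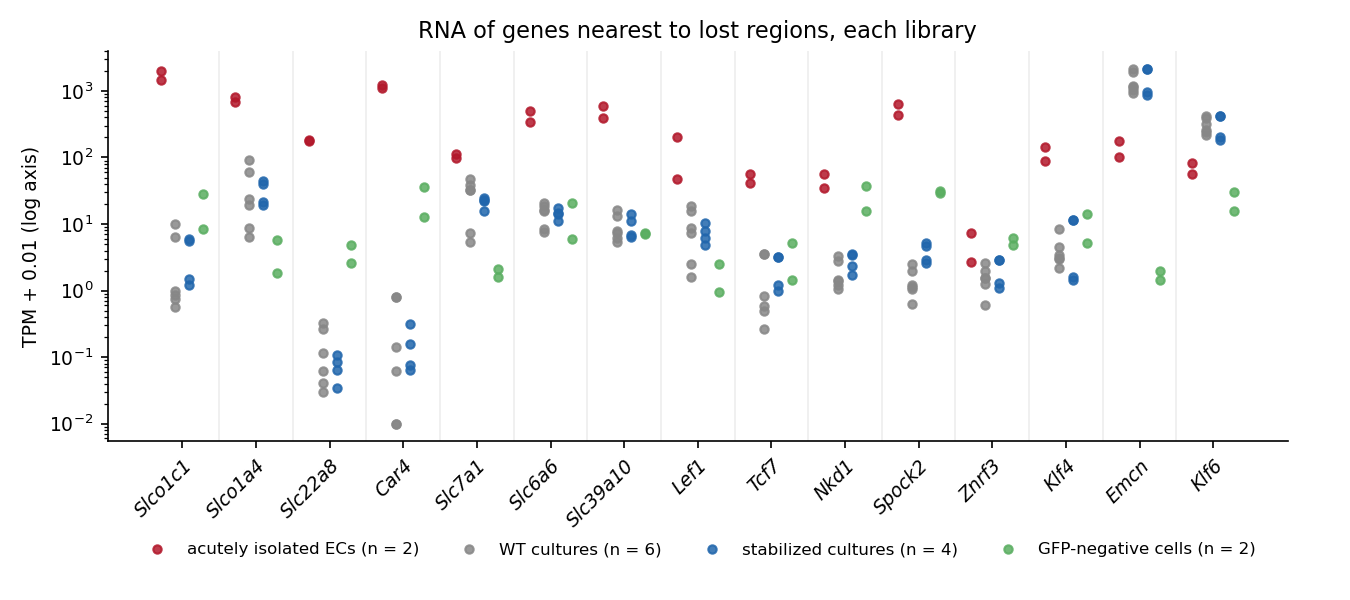
TPM plus 0.01 on a log axis (y) for 15 genes nearest to lost regions (x), 1 point per library, for acute ECs, WT cultures, stabilized cultures and GFP-negative cells. For Slco1c1, Slc22a8, Car4, Nkd1 and Spock2 all acute points lie above all culture points, while the culture points of Emcn and Klf6 lie above their acute points.

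Of 19 components of tight and adherens junctions, 11 were nearest to a lost region (21 regions), and 7 of these were called lower (8 of 18 tested in the list) and 0 higher. Ctnnb1, whose protein also sits at adherens junctions, is counted here again. Cldn5, the main claudin of brain ECs, had a lost region 32.0 kb away and was at 874 and 593 TPM in acute ECs and 92.1 to 774 TPM (median 499) in culture. The log2 fold change from counts was -1.97 (SE 0.59, adjusted p = 0.024, edgeR), though the groups overlapped. The change in TPM was smaller, with a median of 733 in acute ECs, and the paper describes Cldn5 as little changed. Counts here are not scaled by transcript length, so the size of this fall is uncertain. Lsr, a component of tricellular junctions, fell by 3.17, the scaffold Tjp1 by 2.72, occludin (Ocln) by 2.04 and Cgnl1 by 1.96. Cdh5, the cadherin of ECs, with 3 lost regions, was at 136 and 153 TPM in acute ECs and 136 to 295 TPM in culture (log2 fold change -0.65, adjusted p = 0.39), and Pecam1, also with 3, was at 344 and 380 TPM and at 214 to 932 TPM (log2 fold change 0.27, adjusted p = 0.75). Both overlapped between groups.

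Among 35 transcription factors of ECs, 23 were nearest to a lost region (59 regions), and 14 of these were called lower (18 of 35 in the list), with 0 called higher. Lef1 and Tcf7 are in this list too. Klf4, a factor of quiescent ECs under flow, had 5 lost regions 66.0 to 157.3 kb away. It was at 89.7 and 142 TPM in acute ECs and at 2.17 to 8.42 TPM (median 3.25) in culture, and fell by 6.09 (SE 0.68, adjusted p = 0.00029). Epas1, the hypoxia-responsive factor HIF-2 alpha, was at 625 and 1045 TPM in acute ECs and at 48.3 to 134 TPM in culture, and fell by 3.65. Lmo2 fell by 3.89, Elk3 by 2.06 and Ets1 by 1.25. Hey1, a Notch target with 5 lost regions, was at 33 and 31.4 TPM in acute ECs and 1.69 to 27 TPM in culture without overlap, but was not called (log2 fold change -1.94, adjusted p = 0.10). Klf6, with 6 lost regions, was at 57 and 83.9 TPM in acute ECs and 216 to 413 TPM in culture (log2 fold change 0.92, adjusted p = 0.09), so that the groups did not overlap in the other direction. Near Foxq1 a lost region of 17.94-fold and 16.17-fold lay 186.0 kb away.

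Of 30 receptors and surface proteins common to ECs, 18 were nearest to a lost region (37 regions), and 8 of these were called lower (10 of 30 in the list) and 1 higher. The VEGF receptors Flt1 (4 lost regions) and Kdr (3) fell by 4.54 and 3.50, with 1175 and 1134 TPM against 44.4 to 98.7 TPM for Flt1, and 176 and 172 TPM against 28.4 to 55.5 TPM for Kdr. Itm2a, a membrane protein abundant in brain ECs, fell by 4.79. Emcn, a sialoglycoprotein typical of veins and capillaries, was the gene called higher: it had 3 lost regions, the strongest at 14.27-fold and 11.41-fold and 59.8 kb away, and was at 101 and 176 TPM in acute ECs and at 939 to 2172 TPM (median 1163) in culture (log2 fold change 2.83, SE 0.57, adjusted p = 0.0043). Eng, Ly6a, S1pr1, Calcrl and Jag1 did not pass the adjusted p and had log2 fold changes of -0.42, -0.15, 0.87, -0.94 and 0.16. Fold changes here come from counts, and TPM from counts per transcript length, so that the 2 can differ in size, as for Notch1 (log2 fold change -1.84, with 572 and 205 TPM in acute ECs and 11.4 to 26 TPM in culture). They can also differ in direction, as for Cdh5 (log2 fold change -0.65, with median TPM of 144 in acute ECs and 225 in culture).

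The 5 nearest genes with the largest falls were Gm10801, Slc22a8, Srarp, Car4 and Ddc. Gm10801, a predicted gene, was at 370 TPM in acute replicate 1 and 7.31 TPM in acute replicate 2 and at 0 to 0.259 TPM in culture, so that its value rests on replicates that differ. Ddc, which makes dopamine and serotonin from their precursors, had a lost region at its start site (9.53-fold and 8.38-fold, with 1 TCF/LEF match) and went from 160 and 208 TPM to 0 to 0.261 TPM. Srarp, with a lost region at its start site (11.42-fold and 8.75-fold), went from 40.9 and 39.2 TPM to 0 to 0.048 TPM. WT libraries held 0 to 3 counts of Gm10801, 0 to 2 of Srarp, 0 to 25 of Car4 and 0 to 10 of Ddc, so that the sizes of their fitted fold changes depend on the prior count of the fit and are not given.

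The 5 with the largest rises were Tnc, Rundc3b, Lpin3, Phlda3 and Adm, each with 1 lost region. Tnc, the matrix protein tenascin C, went from 0.00703 and 0.135 TPM in acute ECs to 49 to 198 TPM in culture, beside 26.4 and 31 TPM in GFP-negative cells, and Adm, the vasodilator adrenomedullin, from 3.85 and 7.85 TPM to 283 to 1468 TPM (log2 fold change 6.13, SE 0.66, adjusted p = 0.00027). Rundc3b reached 5.61 to 7.2 TPM, Lpin3 39.2 to 124 TPM and Phlda3 98.3 to 361 TPM, from at most 1.44 TPM in acute ECs. Of these 5, the lost region at Tnc held a TCF/LEF match and the strong one at Adm (10.53-fold and 5.24-fold) did not.

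Gja1, the gap junction gene used here as an astrocyte marker, had 7 lost regions and was at 464 and 65.9 TPM in acute ECs, 511 and 1040 TPM in GFP-negative cells and 1.89 to 43.3 TPM in culture (log2 fold change -1.73, adjusted p = 0.066). Ptn, with 6 lost regions, was at 165 and 309 TPM in acute ECs and at 120 and 225 TPM in GFP-negative cells, and fell by 11.02 to 0.117 to 0.467 TPM in culture. GFP-negative cells thus held RNA of both genes at levels above or near those of the sorted ECs, and the part of other cells in these values was not tested. Both genes were named after their values had been seen.

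The state of lost regions in stabilized cultures was read from 2 lists that the choice had not used. Stabilized replicate 1 held a peak in 84 lost regions (2.26%), replicate 2 in 58 (1.56%), and both lists in 20 (0.54%). The share grew with the number of WT lists that held the region, from 2.26% with none through 14.68%, 36.00%, 63.03%, 88.33% and 98.04% to 99.92% with all 6 in stabilized replicate 1. For comparison, the rule was repeated without each WT experiment in turn. Without WT replicates 1 and 2 (method A, lists of 50450 and 33152 peaks), 3821 regions were lost. These left-out wells held 2.4% and 1.1% of them. The stabilized wells (method B, longer lists of 80075 and 79160 peaks) held 2.7% and 2.1%. Without replicates 5 and 6, 3908 regions were lost, and the shares were 3.4% and 3.7% in the left-out wells and 4.1% and 3.5% in the stabilized wells. Without replicates 3 and 4 (lists of 92763 and 98840 peaks, beside 84560 and 92976 in replicates 5 and 6), 5052 regions were lost. The shares were 19.6% and 22.5% in the left-out wells against 8.0% and 6.2% in the stabilized wells. Both wells of the left-out experiment held 0.6%, 2.1% and 15.5% of these regions and both stabilized wells 0.8%, 1.8% and 3.3%, in the order given.

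**Figure D5:**
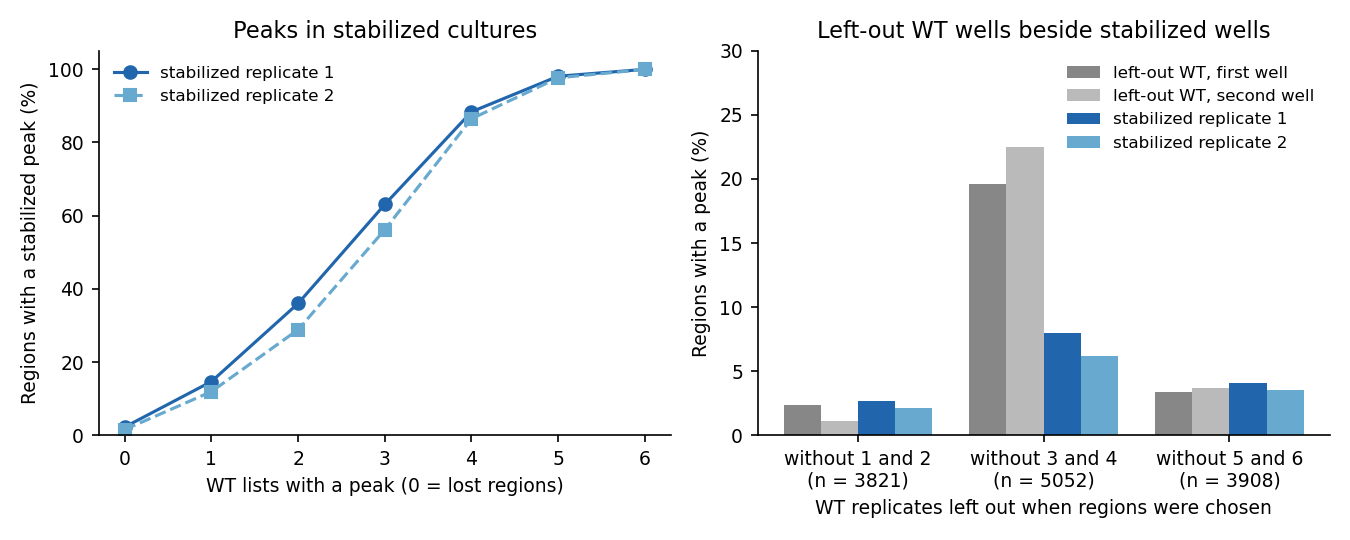
Left, percent of regions with a peak in each stabilized list (y axis) by the number of WT lists with a peak (x axis, 0 being the lost regions). Right, percent of regions with a peak (y axis) in the 2 left-out WT wells and in the 2 stabilized wells when lost regions were chosen without the named WT replicates (x axis). Stabilized peaks cover 2.26% and 1.56% of lost regions, and left-out WT wells hold 1.1% to 22.5% of regions lost without them.

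The 5 strongest of the 20 regions with a peak in both stabilized lists were nearest to Cartpt (5.73-fold and 4.86-fold in the stabilized lists), AC117239.2 (4.86-fold and 4.65-fold), Mrln (5.25-fold and 4.42-fold), Nptx2 (3.82-fold and 4.23-fold) and Pex26 (3.64-fold and 3.81-fold). Ccnd1, the cyclin D1 gene and a known target of beta-catenin, was nearest to another of the 20, 33.8 kb away (9.61-fold and 8.40-fold in acute lists, 3.47-fold and 4.23-fold in stabilized lists), and was named after its values had been seen. Its RNA was at 190 to 350 TPM in WT cultures and at 861, 927, 316 and 316 TPM in stabilized cultures (log2 fold change 1.20, adjusted p = 0.41). The stabilized wells of replicates 1 and 2 lay above every WT well and those of replicates 3 and 4 within the range of all WT wells. By isolation method, WT wells were at 234 and 350 TPM (method A) and at 216, 190, 193 and 221 TPM (method B). Within each method the stabilized wells thus lay above the WT wells. With isolation method as a term, the log2 fold change of Ccnd1 was 1.13 (adjusted p = 0.19, edgeR). Regions with a peak in 1 stabilized list included a strong one 22.9 kb from S1pr1, the receptor for sphingosine-1-phosphate (17.40-fold and 13.94-fold in acute ECs, 3.99-fold in stabilized replicate 1).

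Between stabilized and WT cultures 0 of 1666 tested nearest genes were called in either direction by edgeR, against 0% of all 12971 genes tested. At an unadjusted p under 0.05, 141 nearest genes were higher and 64 lower (561 and 861 of all genes). DESeq2 called 8 nearest genes higher (0.5% of those tested, against 0.116% of all genes) and 0 lower (against 0.0231% of all). The 8 were Bcr, Myo10, Lamc1, Man2b2, Tjp1, Dysf, Plekhg1 and Gfod1. With isolation method as a term, edgeR called 3 higher (0.2%, against 0.0463% of all) and 0 lower (against 0% of all). The 3 were Plxnd1, Synm and Akap13. The same term in the libraries read for 36 cycles gave 21 higher (1.3%, against 0.51% of all) and 1 lower (0.1%, against 0.0773% of all). These genes were named after their values had been seen. Isolation method and experiment differ between the groups. Tjp1, which had fallen in culture, was at 180, 208, 67.1 and 69.5 TPM in stabilized cultures and 24.2 to 67.1 TPM in WT cultures, where the lowest stabilized and the highest WT value nearly met, and the acute ECs held 333 and 442 TPM. Spock2 was at 5.11, 4.71, 2.61 and 2.88 TPM against 0.622 to 2.47 TPM in WT cultures without overlap (log2 fold change 1.26, adjusted p = 0.44), and far below its 440 and 643 TPM in acute ECs. Lef1, Slco1c1, Slc22a8 and Car4 overlapped between stabilized and WT cultures, and the median log2 fold change was 0.64 for the 15 nearest Wnt genes and -0.09 for the 16 tested nearest transporters, beside 0.11 for all nearest genes and -0.07 for all genes tested.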

How the data were processed

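ATAC-seq reads were aligned by the authors with HISAT2 2.1.0 to GRCm38, and peaks were called per library with MACS2 2.1.2. The deposited peak lists give a score, a fold enrichment over background (a ratio), a −log10 p-value and a −log10 q-value. RNA-seq was quantified by the authors with Salmon 0.14.0 against GENCODE M21, and the deposited values are estimated counts, effective lengths and TPM per transcript. Here, counts were summed per gene and rounded, and 21847 protein-coding genes of 54393 were kept.

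Peaks were merged at an overlap of 1 bp. Each region was assigned to the nearest start site of a protein-coding transcript of the annotation, and a start site region had its middle within 1 kb of one. Sequences came from the RefSeq genome of GRCm38, similarity was searched with blastn 2.17.0 (80% identity over 100 bases, E value 1e-20), and motifs were counted in windows of 200 bases. RNA was tested with edgeR 4.0.16 (quasi-likelihood, filterByExpr, TMM, Benjamini-Hochberg) in R 4.3.3 with limma 3.58.1, on the libraries of the 2 groups compared, and DESeq2 1.42.0 was an alternative. Other steps used Python 3.11.15, pandas 2.3.3, numpy 2.4.6, scipy 1.17.1 and pysam 0.24.0. The code was tested on simulated data. Standard errors are the log2 fold change over the root of the F statistic.

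The regions and gene lists were chosen with earlier results of these data known. Named are the 10 most and 5 least enriched regions, the 5 strongest with a peak in both stabilized lists, the 10 genes with the most regions, the 5 nearest genes with the largest called fall and the 5 with the largest called rise among those without overlap of TPM, and up to 10 genes of each gene list by number of regions, besides genes said to be named after their values had been seen. RNA-seq depth was 24284843 to 94686456 counts. Mitochondrial genes took 10.58% to 11.19% of acute EC counts and 0.67% to 1.58% of WT counts. A gene and a sequence that met these rules are not reported here.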

Additional observations from a re-analysis of the deposited data

Results flagged for a closer look

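Single libraries stood apart from their group in 7 of 171 groups of 4 or 6 libraries, where chance gives about 1 in 20 (Dixon's ratio, the gap to the nearest library over the range of the group). WT replicate 2 was highest for Ccnd1 (350 TPM, next 234 TPM, ratio 0.729), Kdr (55.5 TPM, next 38.4 TPM, ratio 0.632) and Klf4 (8.42 TPM, next 4.45 TPM, ratio 0.636). The other 4 are genes of low level. Stabilized replicate 2 held 1.08 TPM of Gm10801 (next 0.18 TPM, ratio 0.834), WT replicate 5 held 0.0852 TPM of Mrln (others 0, ratio 1), WT replicate 3 held 0.162 TPM of Rasd2 (next 0.0487 TPM, ratio 0.698), and WT replicate 4 held 0.0667 TPM of Stra6 (next 0.0181 TPM, ratio 0.728).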

How the results depend on the processing

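The number of lost regions was 3712 and stayed within 1.5 times under 18 of 19 alternatives. Leaving out 1 library gave 3731 to 6714 regions, the highest without acute replicate 2 (5120 without acute replicate 1). Regions with a peak in both stabilized lists numbered 20, and 13 at a −log10 q over 5, 122 with either list, 31 against the 4 WT lists of method B and 13 without the Y chromosome and similar regions (chosen after seeing the data), and leaving out 1 stabilized list gave 58 to 84. Start site regions numbered 140, and 313 within 2500 bp or 85 within 500 bp. The TCF/LEF share of 23.4% was 15.9% in windows of 100 bases, 33.9% in 400 bases and 26.0% without similar regions (chosen after seeing the data). The count of nearest genes lower in culture stayed within 1.5 times under 22 of 22 alternatives (369 to 447 with 1 library left out). The count higher in culture was 124, and 273 with any region within 50 kb, 200 without the TPM minimum, 79 with wells summed, and 77 to 125 with 1 library left out (77 without acute EC replicate 1). In sorted cells 483 nearest genes were higher in ECs, and 314 to 503 with 1 library left out (314 without GFP-negative replicate 2). Those lower numbered 122, and 240 without the TPM minimum or 110 to 118 with 1 library left out. Between stabilized and WT cultures 0 nearest genes were higher. DESeq2 gave 8 (0.5%, against 0.116% of all genes) and a method term 3 (0.2%, against 0.0463% of all). That term in the 36-cycle libraries gave 21 (1.3%, against 0.5% of all) and the replicate block 44 (2.6%, against 1.1% of all). Lower were 0 nearest genes, and 1 in the 36-cycle libraries with that term (0.1%, against 0.1% of all). With the block 2 were lower (0.1%, against 0.3% of all). Leaving out 1 library gave 0 throughout. Over all genes, 1866 were higher and 1410 lower in culture, and 3160 and 2829 without the TPM minimum or 1270 and 834 with wells summed. Replicate numbers were not shown to pair the samples throughout, and the main fits used no pairing. Same-numbered libraries correlated at -0.039 and 0.045 for culture against acute ECs. For acute ECs against GFP-negative cells the values were 0.064 and 0.064, which groups of 2 libraries force to be equal. For stabilized against WT cultures they were 0.538 and 0.529 for replicates 1 and 2, all of method A, and -0.003 and 0.055 for replicates 3 and 4, all of method B. With the replicate block, 516 nearest genes were lower and 147 higher in culture (29.4% and 8.4%, against 12.7% and 13.4% of all genes). In sorted ECs 438 were higher and 110 lower (23.9% and 6.0%, against 6.7% and 7.0% of all genes). The cause of these differences was not tested.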
